A study of Mus musculus with 30 samples.

Results

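The 5-hydroxymethylcytosine (5hmC) regions of Tdg -/- mouse embryonic stem (ES) cells were compared with those of Tdg fl/fl ES cells, on chromosomes 1 to 19 and X. All regions of both lists were taken: 174655 in Tdg -/- cells and 140943 in fl/fl cells, together 315598 of the 694497 regions in the 8 region lists of the series. Tdg is the gene of thymine DNA glycosylase. Both groups were ES cells of strain C57BL/6-ICR. The labels give Tdg -/- cells as homozygous for the null allele, and fl/fl cells carried floxed alleles, which Cre recombinase can delete. Each list stood for 2 libraries, made from DNA enriched for 5hmC by selective chemical labelling and amplified for 18 PCR cycles. The list pools its libraries, so no spread between replicates could be had, no difference was tested, and the intervals below are 95% intervals that cover counting error only. The sources used here do not say whether each genotype was a single clone.

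TET enzymes oxidise 5-methylcytosine to 5hmC and then to 5-formylcytosine (5fC) and 5-carboxylcytosine. Thymine DNA glycosylase excises 5fC and 5-carboxylcytosine, and base excision repair puts an unmodified cytosine in their place. It does not excise 5hmC, which in ES cells is found at enhancers, in gene bodies and around many promoters.

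The RNA of the same genotypes was read from 1 FPKM value per gene and genotype, a level scaled to transcript length and library size. Tdg itself stood at 9.48 FPKM in Tdg -/- cells and 22.1 FPKM in fl/fl cells. The value covers the whole gene, and the sources used here do not say which part of it was deleted. Tet1, the main TET gene of ES cells, had 76.9 FPKM in Tdg -/- and 66.6 FPKM in fl/fl cells. Tet2 had 43.8 FPKM in Tdg -/- and 46.9 FPKM in fl/fl cells, and Tet3 lay below 2 FPKM in both. The pluripotency factor genes Pou5f1 (612 FPKM in Tdg -/- and 631 FPKM in fl/fl cells), Nanog (456 FPKM in Tdg -/- and 473 FPKM in fl/fl cells) and Esrrb (184 FPKM in Tdg -/- and 165 FPKM in fl/fl cells) were high in both genotypes. The 12 markers of fibroblasts, endoderm, neural cells and mesoderm lay at or below 2.36 FPKM in both, and the highest, the surface protein gene Thy1, had 1.72 FPKM in Tdg -/- and 2.36 FPKM in fl/fl cells.

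Tdg -/- cells had more 5hmC regions, and their regions were wider. The regions covered 229 Mb in Tdg -/- cells and 167 Mb in fl/fl cells, a ratio of 1.37, while the ratio of their numbers was 1.24. The median width was 1043 bp in Tdg -/- cells (interval 1040 to 1046) and 979 bp in fl/fl cells (976 to 982). The shift was small at the narrow end and grew with width. The 5th percentile was 595 bp in Tdg -/- and 568 bp in fl/fl cells, the 95th was 2860 bp in Tdg -/- and 2460 bp in fl/fl cells, and the 99th was 4688 bp in Tdg -/- and 3812 bp in fl/fl cells. Regions under 500 bp were fewer in Tdg -/- cells, 2621 against 2843 in fl/fl cells. Regions from 2000 to under 4000 bp numbered 20093 in Tdg -/- and 12383 in fl/fl cells, a ratio of 1.62. Those of 4000 bp and over numbered 3049 in Tdg -/- cells, with 16.5 Mb, against 1149 with 5.80 Mb in fl/fl cells, a ratio of numbers of 2.65. Both lists began at the same score of 50, so neither was trimmed at a higher score than the other, and the read depth behind them is unknown.

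**Figure D1:**
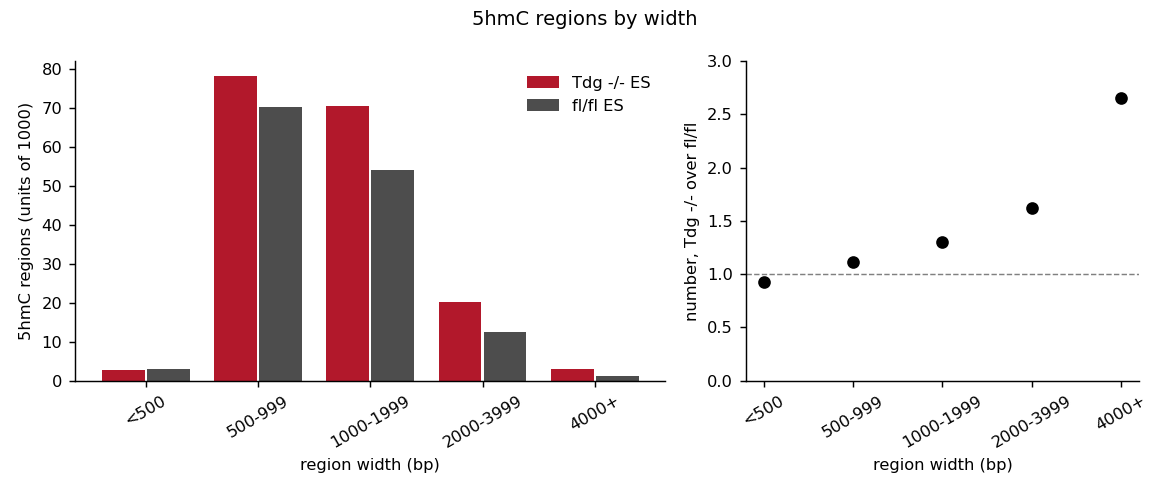
Number of 5hmC regions, in units of 1000, by width class in bp for Tdg -/- (red) and fl/fl (grey) ES cells, and the ratio of the numbers, Tdg -/- over fl/fl, with a dashed line at 1. The ratio was 0.922 under 500 bp and 2.65 at 4000 bp and over.

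The widest Tdg -/- region lay beside another of nearly its width. On chromosome 8, regions of 19820 bp (chr8:123068960-123088780, mm9) and 18820 bp (chr8:123088854-123107674) were separated by 74 bp, so that 38714 bp were covered but for that gap. The fl/fl list held 3 regions along the first of them, of 12811, 1036 and 5297 bp, and the last of these reached into the second. Right of base 123090019 the second had none. A region of 19017 bp on chromosome 4 (chr4:141016978-141035995) met a single fl/fl region of 1977 bp at its left end. Its score was exactly 3100, a value shared by many Tdg -/- regions and described with the scores below. The widest fl/fl region, 15360 bp at chr5:115991474-116006834, had nearly the same extent in Tdg -/- cells, where regions of 873 and 15177 bp lay 5 bp apart.

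Most of the fl/fl territory was retained in Tdg -/- cells, and Tdg -/- cells added to it. Of the covered length, 146 Mb was shared, which is 63.8% of the Tdg -/- length and 87.2% of the fl/fl length. Tdg -/- cells had 82.9 Mb that fl/fl cells lacked, and fl/fl cells had 21.4 Mb that Tdg -/- cells lacked. A region was counted as gained where it shared no base with a fl/fl region, and as lost where a fl/fl region shared no base with a Tdg -/- region. Gained regions made up 32.3% of the Tdg -/- list and lost ones 12.7% of the fl/fl list. With the 100000 highest-scoring regions of each list alone, these shares were 24.4% of Tdg -/- and 20.9% of fl/fl regions, and the ratio of covered length was 1.21. That cut fell at a score of 118.27 in the Tdg -/- and 75.77 in the fl/fl list, and matching was redone within it. A region counted as gained or lost there can meet a region of the other list that fell below the cut. Gained regions held 53.6 Mb, or 64.6%, of the length found in Tdg -/- cells alone. A further 27.5 Mb (33.2%) lay at the outer sides of regions that met a fl/fl region, and 1.79 Mb (2.16%) lay between fl/fl regions that a Tdg -/- region joined. New regions gave more of the added length than kept regions did in the lists as deposited, but this order turned round with regions less than 1000 bp apart merged, where 59.0% of the added length lay beside fl/fl regions.

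Gained and lost regions were narrower and scored lower than the regions kept in both. The median width was 850 bp for gained regions (interval 848 to 853) and 1198 bp for the other Tdg -/- regions. It was 719 bp for lost regions (716 to 722) and 1035 bp for the other fl/fl regions. Widths of 2000 bp and over were found for 1315 gained regions (2.33%) and 21827 kept Tdg -/- regions (18.5%), and for 34 lost regions (0.190%) and 13498 kept fl/fl regions (10.97%). The widest gained region had 13140 bp and the widest lost region 3854 bp.

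Regions present in both genotypes were mostly wider in Tdg -/- cells. In 104164 cases 1 Tdg -/- region met 1 fl/fl region and no other, which took up 59.6% of the Tdg -/- and 73.9% of the fl/fl list. In these pairs the median width was 1154 bp in Tdg -/- and 1010 bp in fl/fl cells. The Tdg -/- region was the wider in 74576 pairs (71.6%, interval 71.3 to 71.9), and the fl/fl region in 28.2%. The median change was 99 bp (97 to 100), with quartiles of -16 and 251 bp. Both edges contributed alike, with medians of 40 bp on the left and 41 bp on the right. Both edges lay outside the fl/fl edges in 43.8% of pairs and both lay inside in 12.1%. The tails of the distribution were unequal: 12634 pairs were at least 500 bp wider in Tdg -/- cells, and 1520 were at least 500 bp wider in fl/fl cells.

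**Figure D2:**
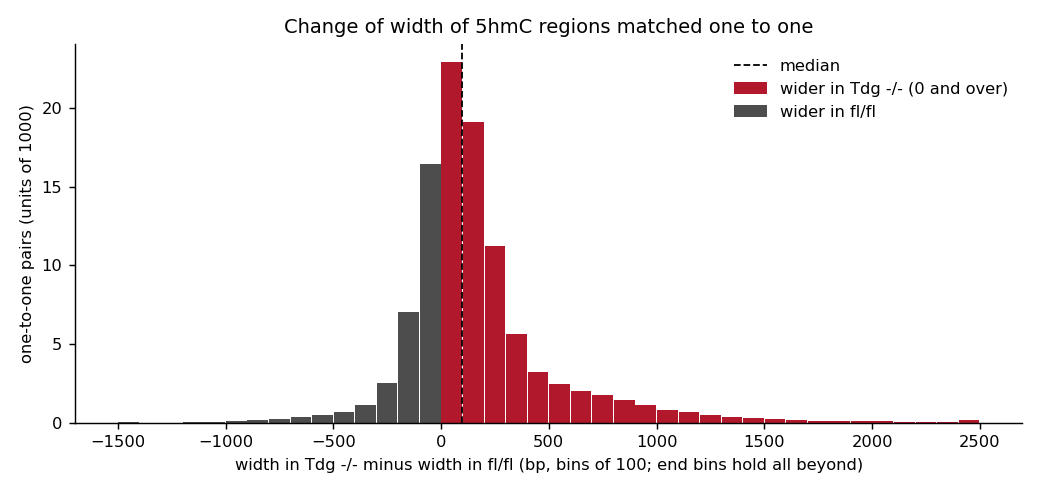
Number of one-to-one pairs, in units of 1000, by the width in Tdg -/- minus the width in fl/fl ES cells in bp, in bins of 100 bp whose end bins hold everything beyond. Red bins are 0 and over, grey bins are wider in fl/fl cells, and the dashed line is the median of 99 bp.

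Pairs were more often wider in Tdg -/- cells in each width class from 500 bp up. Grouped by the mean width of the pair, which treats both lists alike, the Tdg -/- region was the wider in 54.4% of pairs under 500 bp, 66.5% from 500 to under 1000 bp, 74.1% from 1000 to under 2000 bp, 79.9% from 2000 to under 4000 bp and 81.8% at 4000 bp and over. The interval of the narrowest class was 49.9 to 58.9%, which includes an even split, and its median change was 11 bp (interval 0 to 21). In the widest class the median change was 245 bp. Over deciles of the pairs by fl/fl score, the share wider in Tdg -/- cells stayed between 68.1% and 77.3%. Across pairs, the rank correlation of Tdg -/- with fl/fl widths was 0.803 and that of the scores 0.690, given as descriptions of these lists.

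The pairs with the largest change show the range. At chr10:126949953-126958708 the Tdg -/- region had 8755 bp and the fl/fl region 1027 bp. At chr2:165667115-165675962 the widths were 8847 bp in Tdg -/- and 1429 bp in fl/fl cells. In the other direction, the Tdg -/- region at chr7:29672244-29673639 had 1395 bp where the fl/fl region had 3349 bp, and that at chr16:20373442-20374115 had 673 bp where the fl/fl region had 2465 bp. The change at the chromosome 7 pair, -1954 bp, was the most negative of all pairs, and the most positive was 17040 bp, at the chromosome 4 region described above. The Tdg -/- regions of the chromosome 2 and chromosome 4 pairs scored exactly 3100, a tied value that needs care, as described with the scores below.

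Neighbouring fl/fl regions were a single region in Tdg -/- cells in a small share of cases, and the reverse was less frequent. Of 140923 gaps between neighbouring fl/fl regions, 8748 (6.21%) were covered by a single Tdg -/- region. Of 174635 Tdg -/- gaps, 3945 (2.26%) were covered by a single fl/fl region. In all, 7949 of 174655 Tdg -/- regions met at least 2 fl/fl regions, and 3846 of 140943 fl/fl regions met at least 2 Tdg -/- regions. With a score minimum of 100 in both lists the numbers were 3575 Tdg -/- and 2046 fl/fl regions, and with the 100000 highest-scoring regions of each they were 4955 Tdg -/- and 1878 fl/fl regions. Of the joining regions of the whole lists, 7252 met 2 fl/fl regions, 608 met 3, 77 met 4, 11 met 5 and 1 met 6. Of the split ones, 3749 met 2 Tdg -/- regions, 95 met 3 and 2 met 4. Where several fl/fl regions met 1 Tdg -/- region and no other, 6343 Tdg -/- regions met 13310 fl/fl regions, with a median width of 2834 bp in Tdg -/- and 1116 bp in fl/fl cells. The opposite case, 1 fl/fl region over several Tdg -/- regions, gave 4670 Tdg -/- regions with a median of 1067 bp and 2310 fl/fl regions with a median of 2123 bp.

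Joining followed the size of the gap. Of 11193 gaps under 200 bp between neighbouring fl/fl regions, 6255 (55.9%, interval 55.0 to 56.8) were covered by a single Tdg -/- region that reached both neighbours. The share was 16.9% from 200 to under 400 bp, 7.13% from 400 to under 600 bp and 3.02% from 800 to under 1000 bp. In the mirror count, fl/fl regions covered 3462 of 16779 Tdg -/- gaps under 200 bp (20.6%, 20.03 to 21.25) and 2.92% of those from 200 to under 400 bp. At each of these gap sizes the share covered was higher for fl/fl gaps. The largest gap covered was 7134 bp for a fl/fl gap and 1111 bp for a Tdg -/- gap.

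**Figure D3:**
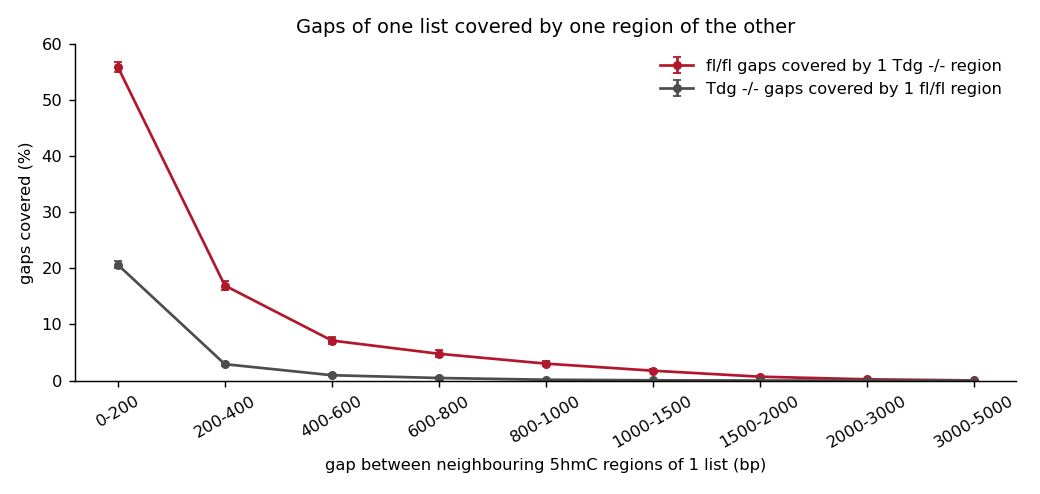
Share of gaps between neighbouring regions of 1 list that a single region of the other list covers, in percent, by gap size in bp, with Wilson 95% intervals. Red points are fl/fl gaps covered by Tdg -/- regions (55.9% under 200 bp), and grey points are Tdg -/- gaps covered by fl/fl regions (20.6% under 200 bp).

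Among joined regions, 3 loci are named for the number of fl/fl regions they met. The Tdg -/- region of 9154 bp at chr8:126835116-126844270 met 6 fl/fl regions of 572 to 3744 bp. One of 8001 bp at chr15:78622035-78630036 met 5 fl/fl regions of 619 to 3107 bp, and one of 11877 bp at chr11:88516940-88528817 met 5 of 873 to 5110 bp. Their scores were 1316, 2857 and 2204 in the Tdg -/- list, and the fl/fl regions they met scored 53.9 to 1194 in their own list. Each of the 3 also met 5fC regions of Tdg -/- cells, 3, 2 and 6 in number, and the one on chromosome 8 met no fl/fl 5fC region. The fl/fl regions split over the most Tdg -/- regions lay at chr18:65766821-65771049 (4228 bp, 4 Tdg -/- regions), chr17:27369503-27375204 (5701 bp, 4) and chr17:31981349-31991394 (10045 bp, 3). In the last, the middle Tdg -/- region alone had 6781 bp.

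5hmC regions lay closer to each other in Tdg -/- cells, whose list also held more regions. A larger number by itself brings neighbours closer. The 100000 highest-scoring regions of each list, equal in number, differed less in the share with a near neighbour. The median distance to the nearest region of the same list was 1068 bp in Tdg -/- (interval 1057 to 1079) and 1379 bp in fl/fl cells (1366 to 1395). A neighbour stood within 5000 bp for 83.8% of Tdg -/- and 79.6% of fl/fl regions, and for 74.7% of Tdg -/- and 73.4% of fl/fl regions among the 100000 highest-scoring of each list. Chains of regions less than 5000 bp apart numbered 56930 in Tdg -/- and 54616 in fl/fl cells, with 3.07 regions per chain in Tdg -/- and 2.58 in fl/fl cells. Chains of 5 or more took up 54.7% of Tdg -/- and 45.2% of fl/fl regions. The largest chain held 98 regions in Tdg -/- cells, over chr4:133956738-134243132, and 80 in fl/fl cells, over chr5:114550860-114780646. With gaps under 10000 bp the order of the largest chains turned round, with 265 regions in Tdg -/- and 326 in fl/fl cells, while the mean was 5.44 regions per chain in Tdg -/- and 4.34 in fl/fl cells.

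Most gained regions stood within 5000 bp of a fl/fl region, a smaller share than among fl/fl regions themselves. Their median distance to the nearest fl/fl region was 2494 bp (interval 2450 to 2531), 28.5% lay within 1000 bp and 67.7% (67.3 to 68.1) within 5000 bp. Lost regions stood a median of 1891 bp from the nearest Tdg -/- region (1833 to 1948), and 73.4% lay within 5000 bp. In the whole lists, another region of the same list stood within 5000 bp for 79.6% of fl/fl and 83.8% of Tdg -/- regions. Read along the Tdg -/- list, the gained regions formed 34523 uninterrupted runs. Of these, 22206 were a single gained region between kept ones, and the longest run held 34.

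Windows of 100 kb with more fl/fl regions held more gained regions, up to 20 fl/fl regions per window, but their gained share was smaller. The mean number of gained regions per window was 1.12 where fl/fl cells had 1 or 2 regions, 2.61 where they had 3 to 5, 4.18 at 6 to 10, 5.41 at 11 to 20 and 5.19 at 21 or more. All Tdg -/- regions rose from 2.16 per window at 1 or 2 fl/fl regions to 26.8 at 21 or more. The share of them that was gained fell from 52.0% to 19.3%, which is partly built in. Gained regions are those that meet no fl/fl region, and the windows were grouped by their number of fl/fl regions. Windows with no fl/fl region held 0.194 gained regions. Fewer windows were empty in Tdg -/- (36.3%) than in fl/fl cells (39.9%), and 3143 held 20 or more regions in Tdg -/- cells, against 1947 in fl/fl cells. The 10% of windows with the most regions held 38.6% of Tdg -/- and 42.0% of fl/fl regions. Window counts of both lists were nonetheless close, with a Pearson r of 0.949 and a Spearman rho of 0.955 over 25668 windows, all from the same pair of pooled lists.

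Scores separated kept from unmatched regions. The score is the authors' own value per region, -10 log10(p), and was used to rank and filter regions. Of the lowest decile of Tdg -/- regions by score, 71.0% were gained, and of the highest decile 0.962%. Of the lowest decile of fl/fl regions, 37.7% were lost, and of the highest decile 1 region of 14095. Unmatched regions of both lists thus lay mostly close to the lowest score of their list.

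**Figure D4:**
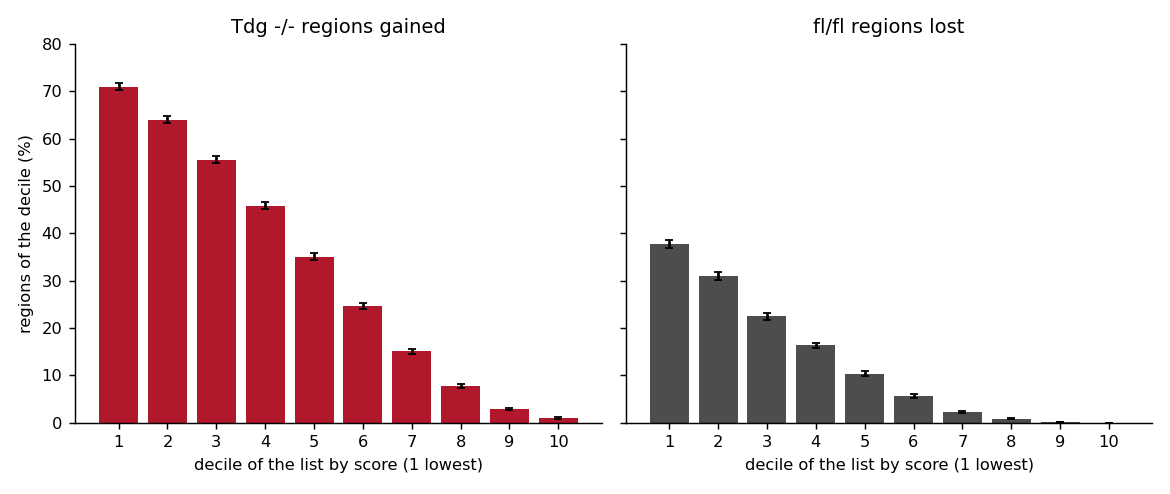
Share of regions without a counterpart, in percent, by decile of the list by score from lowest to highest, with Wilson 95% intervals, for Tdg -/- regions (gained, red) and fl/fl regions (lost, grey). The share was 71.0% in the lowest Tdg -/- decile and 37.7% in the lowest fl/fl decile, and below 1% in the highest decile of each.

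By score, gained regions were led by chr2:166929066-166932532 (3466 bp, score 3165), chr18:83123866-83128071 (4205 bp, score 3158) and chr1:120732250-120735135 (2885 bp, score 3100). The nearest fl/fl region was 180, 138 and 1238 bp away. All 3 met a 5hmC region of fl/fl embryoid bodies (EB), aggregates of differentiating ES cells harvested at day 5, and at least 1 Tdg -/- 5fC region. The scores of such regions need care: 290 Tdg -/- regions had a score of exactly 3100, which no fl/fl region had. Of the 334 at 3100 or above, 53 were gained, against 25 of the 6469 with scores from 1000 to below 3100. Of those 334, 262 were 4000 bp or wider. Without them the ratio of regions of 4000 bp and over was 2.43 in place of 2.65. Lost regions were led by chr10:82105914-82107670 (1756 bp, score 464), chr17:25518100-25521047 (2947 bp, score 331) and chr5:112728945-112732799 (3854 bp, score 320).

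Gained 5hmC regions carried 5fC less often than kept ones. A Tdg -/- 5fC region lay on 26.1% of gained and 68.7% of kept Tdg -/- 5hmC regions, and on 89.4% of those that joined fl/fl regions. Joining regions were wide, with a median of 2834 bp where no other Tdg -/- region was involved. One-to-one Tdg -/- regions from 2000 to under 4000 bp wide had a like share, 89.6%. The shares were 50.7% of gained and 85.3% of kept regions with a score minimum of 100 in both lists, and 51.3% of gained and 83.7% of kept ones with the 100000 highest-scoring regions of each list. In these shortened lists gained and kept were set anew, so a gained region there could meet a deposited fl/fl region below the cut. These shares are thus not those of the higher-scoring gained regions of the whole lists. Narrow regions meet others less often, so regions of one width class of the whole lists were also compared. Among regions from 1000 to under 2000 bp wide the shares were 34.3% of 15839 gained regions (interval 33.6 to 35.0) and 72.9% of 54831 kept ones (72.5 to 73.3). The 5hmC list of fl/fl EB, which was made from other libraries, met 35.6% of gained and 57.3% of kept regions of that class. A fl/fl 5fC region lay on 5.47% of gained and 37.6% of kept ones, from a list whose lowest score was 60.92 where that of the Tdg -/- 5fC list was 50.

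Lost 5hmC regions differed from kept ones in 5fC and in EB 5hmC more than in p300, a histone acetyltransferase of active enhancers. Among fl/fl regions from 500 to under 1000 bp wide, a Tdg -/- 5fC region lay on 14.6% of 14275 lost and 55.0% of 56034 kept regions. A fl/fl 5fC region lay on 6.71% of lost and 24.0% of kept ones, and EB 5hmC on 18.1% of lost and 49.0% of kept ones. Over all widths, fl/fl 5fC lay on 6.97% of lost and 36.3% of kept regions. In the shortened lists lost and kept were set anew, so a lost region there could meet a Tdg -/- region below the cut. The shares were 19.9% of lost and 52.3% of kept ones with a score minimum of 100. With the 100000 highest-scoring regions of each list they were 17.5% of lost and 48.3% of kept ones. The Tdg -/- p300 list met 9.31% of lost (interval 8.84 to 9.80) and 8.08% of kept regions (7.85 to 8.31) from 500 to under 1000 bp. The fl/fl p300 list met 5.50% of lost and 5.46% of kept ones of this class. Over all widths the direction was the other way. The Tdg -/- p300 list met 9.77% of lost and 11.8% of all fl/fl regions, and the fl/fl p300 list 5.78% of lost and 8.12% of all.

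By length, 5fC covered more of the part that both genotypes shared than of the flanks found in either list alone. The same order held for p300, EB 5hmC and EB 5fC. Flanks are the outer edges of regions, which a mark centred on 5hmC covers less in any case, so this order is not particular to 5fC. Tdg -/- 5fC regions covered 55.6% of the shared part of one-to-one pairs, 16.8% of the Tdg -/- flanks and 11.8% of the fl/fl flanks. They covered 19.2% of the gained length. EB 5hmC covered 49.5% of the shared part, 29.1% of the Tdg -/- flanks, 25.7% of the fl/fl flanks and 28.3% of the gained length. The Tdg -/- flanks and the gained regions were thus alike in how much of them lay in these 2 lists.

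The excess of Tdg -/- over fl/fl regions was nearly the same on most chromosomes and stood apart on chromosome 11, at the start of chromosome 6 and on X. The ratio of region numbers lay between 1.15 (chromosome 10) and 1.20 (chromosome 7) over the other 18 autosomal parts, among them the rest of chromosome 6. On chromosome 11 it was 2.21, with 14553 Tdg -/- and 6596 fl/fl regions. In the first 32 Mb of chromosome 6 it was 2.79, with 1671 Tdg -/- and 599 fl/fl regions, and on X it was 1.601, with 690 Tdg -/- and 431 fl/fl regions. The limit of 32 Mb was chosen after the values were seen. Density on chromosome 11 was 123 regions per Mb in Tdg -/- cells, the highest of the 20 chromosomes, and 55.6 per Mb in fl/fl cells. On the other 18 autosomes it ran between 51.9 and 92.7 per Mb in Tdg -/- and between 44.0 and 79.6 per Mb in fl/fl cells.

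**Figure D5:**
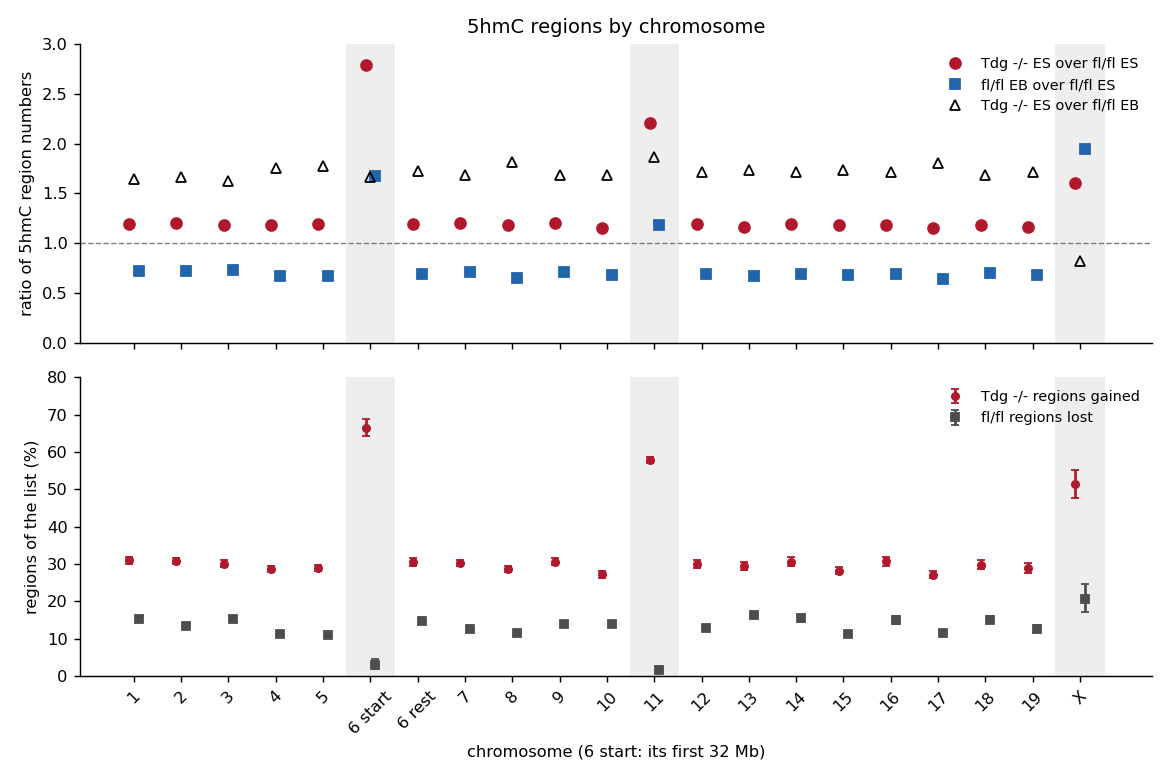
Ratio of 5hmC region numbers (top) and share of regions gained or lost in percent with Wilson 95% intervals (bottom), by chromosome, with the first 32 Mb of chromosome 6 apart. Red circles are Tdg -/- over fl/fl ES cells, blue squares fl/fl EB over fl/fl ES cells and open triangles Tdg -/- ES cells over fl/fl EB, and shading marks the parts that stood apart. On chromosome 11 the ratio was 2.21 for Tdg -/- over fl/fl ES cells and 1.18 for EB over fl/fl ES cells.

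The excess on chromosome 11 ran along its whole length. In blocks of 10 Mb with at least 50 fl/fl regions, the ratio was 1.73 to 3.14 in all 13 blocks of chromosome 11. Over the 233 such blocks of the other 18 autosomes the median was 1.18, the 5th to 95th percentile 1.09 to 1.34, and 4 exceeded 1.5, of which 3 made up the first 30 Mb of chromosome 6. All 95 windows of 1 Mb on chromosome 11 with at least 10 fl/fl regions held more Tdg -/- regions, as did 1446 of 1579 on the other autosomes (91.6%). At 96 to 97 Mb on chromosome 11, 276 Tdg -/- regions stood against 119 fl/fl regions, with 159 gained and none lost. On chromosome 6 the change was abrupt. From 28 to 32 Mb the counts per Mb were 167, 211, 191 and 174 in Tdg -/- and 48, 70, 70 and 95 in fl/fl cells. From 32 to 35 Mb they were 48, 48 and 142 in Tdg -/- and 41, 49 and 124 in fl/fl cells.

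Both places also differed in how regions matched. On chromosome 11, 57.9% of Tdg -/- regions were gained and 98 fl/fl regions (1.49%) were lost. In the first 32 Mb of chromosome 6, 66.5% were gained and 17 (2.84%) lost. Elsewhere on the autosomes the gained share ran between 27.1% and 30.9% and the lost share between 10.8% and 16.3%. One-to-one pairs were wider in Tdg -/- cells in 85.7% of cases on chromosome 11 and 87.9% at the start of chromosome 6, against 67.3% to 73.7% elsewhere. The median change was 214 bp on chromosome 11 and 216 bp at the start of chromosome 6, against 77 to 112 bp elsewhere. The median width of all regions ran the other way on chromosome 11, with 1146 bp in Tdg -/- and 1244 bp in fl/fl cells, and at the start of chromosome 6, with 959 bp in Tdg -/- and 995 bp in fl/fl cells.

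The fl/fl EB list set these places apart too. The EB and Tdg -/- comparisons share the fl/fl ES list, so their values are given side by side. The ratio of 5hmC region numbers, EB over fl/fl ES, was 1.18 on chromosome 11 and 1.68 at the start of chromosome 6, against 0.639 to 0.727 elsewhere on the autosomes. Tdg -/- ES over EB, which leaves the fl/fl ES list out, was 1.86 on chromosome 11 and 1.66 at the start of chromosome 6, against 1.63 to 1.82 elsewhere. For 5hmC, both places stood above the other autosomes in Tdg -/- over fl/fl ES and in EB over fl/fl ES. In Tdg -/- ES over EB, chromosome 11 stood just above their range and the start of chromosome 6 within it. For numbers of 5fC regions, the Tdg -/- over fl/fl ES ratio was 4.03 on chromosome 11 and 7.31 at the start of chromosome 6, against 1.86 to 2.13 elsewhere. Tdg -/- ES over EB was 4.32 on chromosome 11 and 3.42 at the start of chromosome 6, both below the 4.37 to 5.80 elsewhere. For p300 the Tdg -/- over fl/fl ES ratio was 0.787 on chromosome 11, below the 1.34 to 1.48 elsewhere, and 1.33 at the start of chromosome 6. The median log2 change in FPKM of the 759 genes of chromosome 11 with at least 5 FPKM was -0.24, while the other chromosomes had medians from -0.04 to -0.002. The cause of these differences was not tested.

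X carried few 5hmC regions in both genotypes, 4.29 per Mb in Tdg -/- and 2.68 per Mb in fl/fl cells. Its ratio of numbers, 1.601 in the lists as deposited, was 2.12 with a score minimum of 100. With the 100000 highest-scoring regions of each list it was 1.13, where the ratio over all chromosomes is 1 by construction. Gained regions made up 51.4% of its Tdg -/- regions (interval 47.7 to 55.2) and lost ones 20.7% of its fl/fl regions (17.1 to 24.7), both above the range of the autosomes apart from chromosome 11 and the start of chromosome 6. EB had 837 5hmC regions on X, more than either ES list, so Tdg -/- ES over EB was 0.824 there. On chromosome 11 that ratio was 1.86.

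Without chromosome 11 and the first 32 Mb of chromosome 6, an alternative chosen after the values were seen, the ratio of covered length was 1.31, the ratio of numbers 1.18, the gained share 29.6%, the lost share 13.3% and the share of pairs wider in Tdg -/- cells 70.8%.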

How the data were processed

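The authors deposited 1 list of 5hmC regions per genotype, pooled over 2 libraries per the labels, in mm9 coordinates. Each region has a deposited score, -10 log10(p) per the file headers. The submitters' processing notes name Bowtie and MACS 1.4, with the threshold and the treatment of replicates not given in the sources used here. Coordinates are printed as deposited, and the counting base of the starts is unknown. FPKM values were deposited by the authors, 1 per gene and genotype, and the same notes list TopHat 1.4.1 and Cufflinks 1.3.0. No file gives read numbers, so depth is unknown.

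Width was end minus start, and overlap meant at least 1 bp. Shares carry Wilson 95% intervals, and medians 95% intervals from binomial order statistics. Both treat regions as independent, which neighbours are not. FPKM changes were log2((Tdg -/- FPKM + 1)/(fl/fl FPKM + 1)) for genes with at least 5 FPKM in either genotype, of which 8777 of 8826 were placed on a chromosome by symbol (RefSeq, GRCm38.p6). No mm9 annotation or sequence was used here, so regions were not placed in genes. Regions were named by rule: the 3 highest-scoring gained and lost, the 3 widest of each list, the 3 that joined or were split most, the 3 pairs with the largest gain and loss of width, and the 3 windows of 1 Mb with the largest excess of each list, some of which are not described. Members, lists and alternatives were chosen with earlier results of these data known. The matching was tested on simulated lists, with pandas, numpy and scipy.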

Additional observations from a re-analysis of the deposited data

How the results depend on the processing

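Each alternative kept the direction of the results it was applied to, with 2 exceptions: equal numbers of regions set the ratio of numbers to 1 by construction, and merging regions less than 1000 bp apart put 59.0% of the Tdg -/- only length beside fl/fl regions, against 35.4% in the lists as deposited. Gained, lost and kept were set anew within each alternative, so regions left out by a score cut no longer counted as counterparts. The ratio of covered length ranged from 1.21 to 1.56. The ratio of numbers ranged from 1.78 to 2.94 on chromosome 11 and from 1.13 to 2.12 on X. Of 89 values, 32 stayed within 1.5 times (counts and ratios) or within the interval (shares and medians), 56 moved and 1 reversed. A score minimum of 100 gave median widths of 1283 bp in Tdg -/- and 1253 bp in fl/fl cells, 39.8% gained, 9.40% lost, 3575 joining and 2046 split regions, 72.1% of pairs wider, 54.8% of gained regions near a fl/fl region (within 5000 bp), and a near neighbour for 77.0% of Tdg -/- and 68.2% of fl/fl regions. The 100000 highest-scoring regions of each list gave 1351 bp in Tdg -/- and 1130 bp in fl/fl cells, 24.4% gained, 20.9% lost, 4955 joining and 1878 split, 73.1% wider, 62.1% near, and neighbours for 74.7% of Tdg -/- and 73.4% of fl/fl regions. Merging regions less than 1000 bp apart gave 1201 bp in Tdg -/- and 1093 bp in fl/fl cells, 29.3% gained, 12.3% lost, 1280 split, 53.9% near, and neighbours for 72.9% of Tdg -/- and 68.2% of fl/fl regions. An overlap of at least 50% of the shorter region gave 32.7% gained, 13.0% lost, 1989 split, 71.2% wider and 68.1% near. Without chromosome 11 the values were 1035 bp in Tdg -/- and 969 bp in fl/fl cells, 29.97% gained, 13.2% lost, 70.8% wider, 69.3% near, and neighbours for 83.3% of Tdg -/- and 79.8% of fl/fl regions. Leaving out also the first 32 Mb of chromosome 6, chosen after seeing the data, gave 1036 bp in Tdg -/- and 969 bp in fl/fl cells, 29.6% gained, 13.3% lost, 70.8% wider, 69.9% near, and neighbours for 83.3% of Tdg -/- and 79.9% of fl/fl regions. The cause of these moves was not tested.

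No paired analysis was possible because each genotype has 1 pooled list. Leaving out a replicate was not run for the same reason. Sequencing depth is unknown, and its part in the larger number and width of Tdg -/- regions was not tested.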

Other observations

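Chromosome 7 held the 1 Mb window with the largest fl/fl excess. From 77 to 78 Mb there were 28 5hmC regions in Tdg -/- and 65 in fl/fl ES cells, and 39 fl/fl regions were lost. The lost regions had a median width of 810 bp, and their scores reached 258. 5fC regions numbered 24 in Tdg -/- and 36 in fl/fl ES cells, while p300 regions numbered 17 in Tdg -/- and 12 in fl/fl ES cells. EB had 39 5hmC regions there. The next windows in that order had far smaller differences, with 107 Tdg -/- and 125 fl/fl regions at 148 to 149 Mb on chromosome 3, and 120 Tdg -/- and 136 fl/fl regions at 97 to 98 Mb on chromosome 6.

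Gained regions differed by place in how far they stood from the fl/fl list. The median distance was 3599 bp on chromosome 11 (interval 3434 to 3737), 5818 bp in the first 32 Mb of chromosome 6 (5232 to 6700) and 15681 bp on X (12703 to 20872), against 2274 bp on the other autosomes (2233 to 2315). Distance depends on how dense the fl/fl list is, and it held 599 regions in that part of chromosome 6 and 431 on X. A Tdg -/- 5fC region lay on 36.1% of the gained regions of chromosome 11 and 36.2% of those at the start of chromosome 6, against 24.0% on the other autosomes. Their median scores were 103, 98.1 and 77.1 in the same order, and their median widths 948, 851 and 837 bp. The part of score, width and density in these differences was not tested.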
